A study of Mus musculus with 6 samples.

Results

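The endothelial genes described here are 34 genes listed by symbol, 32 of which are expressed by the cells that line blood vessels and 2 of which, Vegfa and Angpt1, encode ligands made mostly by other heart cells. All 34 had a probe on the array, and each was represented by its brightest probe, of 19057 genes with a probe of 1 symbol. Total RNA of FVB mouse hearts was measured on 6 Illumina arrays. Wild-type mice gave 1 array after sham surgery and 2 after thoracic aortic constriction (TAC), a narrowing of the aorta that raises the pressure the heart must pump against. Mice with a heart-specific JMJD2A transgene, which encodes a histone lysine demethylase (gene Kdm4a), likewise gave 1 sham and 2 TAC arrays. The mice were 8 weeks old by the labels, whereas the design text gives the age in years, and hearts were taken 3 weeks after surgery. The transgene's promoter and the number of its lines are not given in the labels. They also do not say whether an array holds 1 animal or a pool, so p-values measure only the spread between these samples, which may be technical.

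Endothelial cells form the inner wall of vessels and of the heart chambers, and in the heart most of them lie in capillaries beside the muscle cells. Their identity is kept by transcription factors of the ETS and SOX families, which act through short DNA motifs near endothelial genes. Vascular endothelial growth factors act on them through the receptors encoded by Flt1, Kdr and Flt4, and the angiopoietins through Tek with its relative Tie1. In whole-heart RNA, fewer endothelial cells and less RNA per cell cannot be told apart.

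Because Ets1, Fli1 and Erg are themselves on the list, the 250 bases before the transcription start were searched for the ETS core motifs CAGGAA and CCGGAA on both strands. The RefSeq promoter table (GRCm38.p6) held 24 promoters of 17 of the 34 genes, including Vegfa. Of these, 12 of 24 held either motif, against 35.1% of all 32851 promoters of the same length. CAGGAA was in 45.8% of the endothelial promoters and 25.7% of all, and CCGGAA in 1 of 24 and 3952 of 32851. The SOX motif ACAAT was in 25.0% and 27.7%, and the GATA motif AGATAA in 3 of 24 and 3281 of 32851. A match describes letters in this window and is not a measured site. As examples with ETS motifs in capitals (TTCCTG is CAGGAA on the other strand), the stretches before Tie1 (chr4:118489850-118490099, minus strand), Robo4 (chr9:37401722-37401971, plus strand) and Rasip1 (chr7:45627287-45627536, plus strand) are given 5′ to 3′ on the gene's strand. All 3 genes were at their lowest on transgenic sham or transgenic TAC 1, as described with their values. This was not particular to them, as transgenic sham was lowest for 11 and transgenic TAC 1 for 15 of the 30 genes tested. Those genes included Cldn5, Eng, Flt1 and Cav1, whose promoters searched here held neither ETS motif.
Tie1: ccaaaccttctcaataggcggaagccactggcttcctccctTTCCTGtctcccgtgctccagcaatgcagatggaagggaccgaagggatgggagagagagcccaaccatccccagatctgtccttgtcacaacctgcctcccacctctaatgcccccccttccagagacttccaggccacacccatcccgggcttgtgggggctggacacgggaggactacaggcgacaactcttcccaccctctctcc
Robo4: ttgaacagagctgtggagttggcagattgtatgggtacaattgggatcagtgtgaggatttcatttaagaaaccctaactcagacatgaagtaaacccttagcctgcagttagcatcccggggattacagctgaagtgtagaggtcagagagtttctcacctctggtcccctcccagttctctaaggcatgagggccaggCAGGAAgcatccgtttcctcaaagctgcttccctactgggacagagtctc
Rasip1: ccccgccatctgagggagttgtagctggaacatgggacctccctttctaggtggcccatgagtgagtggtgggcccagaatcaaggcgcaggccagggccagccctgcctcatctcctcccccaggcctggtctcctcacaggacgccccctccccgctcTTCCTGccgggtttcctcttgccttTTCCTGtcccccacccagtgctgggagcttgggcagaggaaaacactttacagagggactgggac

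Heart muscle was present by its markers, since 12 of 12 cardiomyocyte markers with a probe lay above the intensity filter. Array pairs correlated at r = 0.984 to 0.994 over all probes, and transgenic TAC 1 and 2 were the pair with the widest spread (SD of their log2 difference 0.306, against 0.200 for wild-type TAC 1 and 2). Xist, the RNA that coats the inactive X chromosome in females, was at log2 5.38 on wild-type TAC 2 and 5.41 on transgenic sham, and between 10.36 and 11.03 on the other 4 arrays, so these 2 arrays stood apart and the labels give no sex. One probe of Kdm4a was at 7.03 on transgenic sham, 6.86 on transgenic TAC 1 and 6.32 on transgenic TAC 2, against 6.40 to 6.49 on the wild-type arrays. Its brightest probe lay between 6.45 and 6.75 on all 6. The labels do not say whether these probes match the transgene, so they do not check the genotypes, and the arrays are named as labelled.

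Of the 34 genes, 30 lay above the intensity filter (a mean log2 intensity of 5.88) and were tested among 11167 genes. The 4 below it were the growth factor receptor gene Kdr (5.48 to 5.79), the ETS factor gene Erg (5.61 to 5.86), the adrenomedullin and CGRP receptor gene Calcrl (5.32 to 5.56) and the surface lectin gene Clec14a (5.38 to 5.77). The array medians were 5.82, so these values are near or below them and the probes give no usable difference for these 4 genes.

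Most of the 30 endothelial genes were high and low on the same arrays. Each gene's log2 intensity minus its own mean over the 6 arrays had a median of -0.01 on wild-type sham, 0.19 and 0.14 on wild-type TAC 1 and 2, -0.22 on transgenic sham, and -0.31 and 0.24 on transgenic TAC 1 and 2. Transgenic TAC 1 was the lowest array for 15 genes and transgenic sham for 11, whereas 22.8% and 18.4% of all genes were lowest there. Transgenic TAC 2 was the highest array for 12 of the 30, against 24.7% of all genes. None was lowest on either wild-type TAC array. The summed intensity of the 30 genes ran from 39989 on transgenic TAC 1 to 57981 on transgenic TAC 2, arrays that carry the same label. Transgenic TAC 2 exceeded transgenic TAC 1 for 27 of 30 genes, by a median of 0.51 (all genes 0.06, 58.7% higher), while wild-type TAC 2 exceeded wild-type TAC 1 for 14 of 30, with a median of -0.03.

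**Figure D1:**
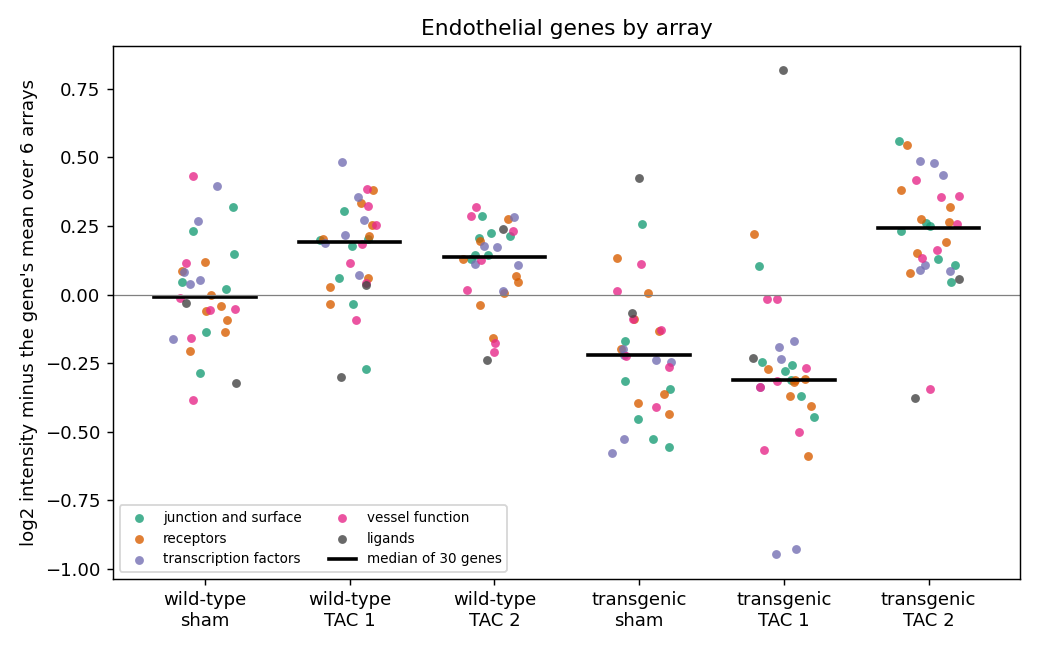
Log2 intensity of each of 30 endothelial genes minus its mean over the 6 arrays (y axis), by array (x axis), coloured by role; black bars are medians. The medians of transgenic sham (-0.22) and transgenic TAC 1 (-0.31) lie below 0 and that of transgenic TAC 2 (0.24) is the highest.

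All 6 arrays entered the comparisons of surgery (over both genotypes) and of genotype (over both surgeries), which ask what pressure load and the transgene change. For TAC against sham, 25 of the 30 genes were higher and 5 lower, with a median log2 difference of 0.16 (all genes -0.01). By limma with adjustment over all 11167 genes 0 of 30 passed at 0.05, where 0.00895% of all genes passed. At an unadjusted p under 0.05 there were 2, and the smallest adjusted p was 0.420. By its brightest probe no endothelial gene had all 4 TAC arrays on one side of both sham arrays, which 16.5% of all genes had. Without transgenic TAC 2 the median was 0.05, and without transgenic TAC 1 it was 0.28.

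For transgenic against wild type, 5 genes were higher and 25 lower, with a median of -0.23 (all genes -0.01). Again 0 of 30 passed (0.949% of all genes did), 3 had an unadjusted p under 0.05 and the smallest adjusted p was 0.354. No gene had its 3 transgenic arrays apart from its 3 wild-type arrays (16.1% of all genes did). Taken singly, transgenic sham lay below all 3 wild-type arrays for 22 genes and above them for 3. Transgenic TAC 1 lay below them for 25 and above for 2. Transgenic TAC 2 lay below them for 2, above for 13 and within their range for 15. The corresponding shares of all genes below the wild-type arrays were 32.8%, 36.4% and 27.4%. Above them lay 28.8%, 25.9% and 33.8% of all genes. The Kdm4a probe described above was also low on transgenic TAC 2 and high on the other transgenic arrays, and its part in this was not tested.

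One array decided whether any endothelial gene passed between genotypes. Without transgenic TAC 2, 7 of 30 passed by limma (4.24% of all genes did) and the median was -0.36. These were Angpt1 (0.94 ± 0.13 SE, adjusted p = 0.00685), higher in transgenic arrays, and Sox18 (-1.10, adjusted p = 0.007), Sox7 (-0.89, 0.0125), Icam2 (-0.56, 0.0403), Eng (-0.62, 0.0431), Tie1 (-0.57, 0.0456) and Esam (-0.42, 0.049), lower in them. Here 2 transgenic arrays stood against 3 wild-type arrays, and the spread came from fewer arrays. Without transgenic TAC 1, 0 passed and the median was -0.08. With Xist as a covariate the median was -0.23, with 0 passing. Leaving out both arrays of low Xist removed transgenic sham, so wild-type sham then set only the surgery term. The genotype difference was then that of transgenic TAC 1 and 2 from 1 array, wild-type TAC 1, with a median of -0.20. That fit therefore does not check the comparison over both surgeries.

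**Figure D2:**
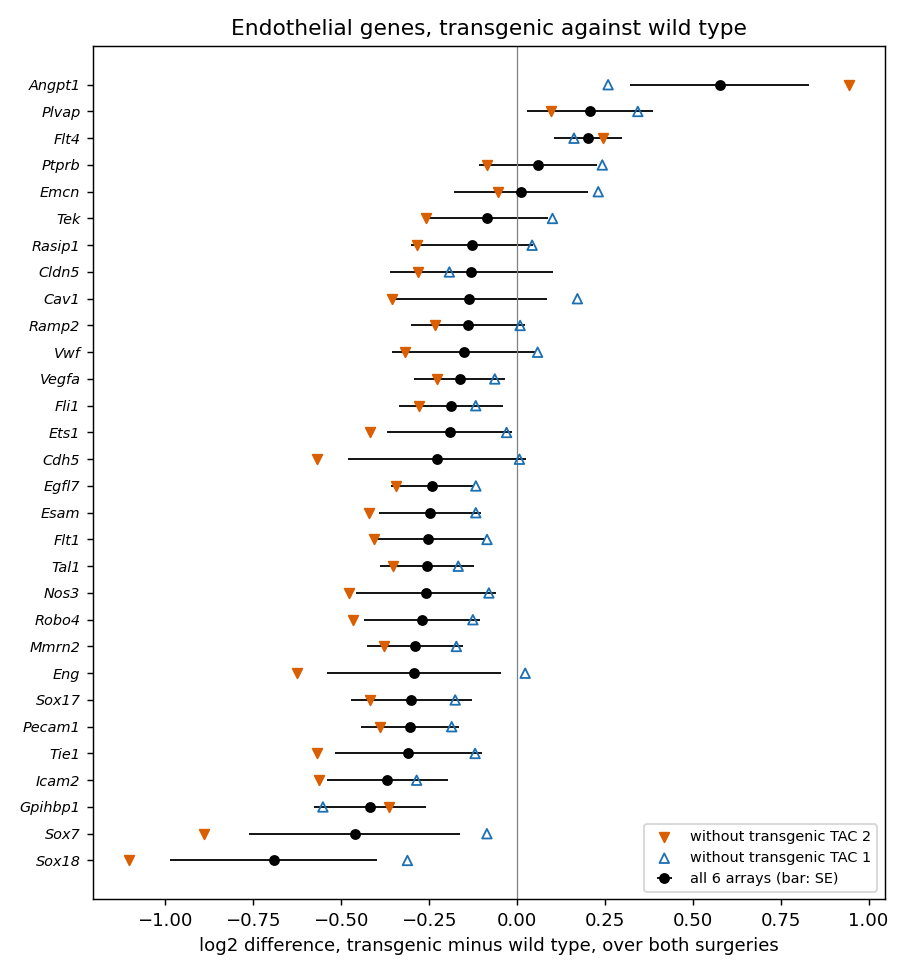
Log2 difference of transgenic minus wild-type arrays over both surgeries (x axis) for each of 30 endothelial genes (y axis), with all 6 arrays (black, bar is the SE) and with either transgenic TAC array left out. Sox18 and Sox7 reach -1.10 and -0.89 without transgenic TAC 2, and Angpt1 reaches 0.94.

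Among the junction, adhesion and surface genes, 7 of 8 were tested. All 7 were higher after TAC (median 0.22) and 6 of 7 lower in transgenic arrays (median -0.25), and none passed. Pecam1, an adhesion protein at contacts between endothelial cells, was at log2 10.18 on wild-type sham, 10.62 and 10.61 on wild-type TAC 1 and 2, 10.002 on transgenic sham, and 10.07 and 10.43 on transgenic TAC 1 and 2. Both TAC arrays of each genotype were above its own sham array, but transgenic TAC 1 was below wild-type sham. Its log2 difference with TAC was 0.34 ± 0.15 (limma adjusted p = 0.529) and with the transgene -0.30 ± 0.14 (adjusted p = 0.451). Its second probe did not follow in either genotype. In the wild type that probe was at 8.65 on sham and 8.61 and 8.56 after TAC. In transgenic arrays it was at 8.32 on sham, 8.11 on TAC 1 and 8.95 on TAC 2, its highest array. Icam2, an adhesion molecule that binds leukocyte integrins, was at 11.19 on wild-type sham, 11.14 and 11.11 on wild-type TAC, 10.43 on transgenic sham, and 10.71 and 11.19 on transgenic TAC. Only transgenic TAC 2 of the transgenic arrays reached the wild-type range, and the genotype difference was -0.37 ± 0.17 (adjusted p = 0.459). Mmrn2, a matrix protein that binds Clec14a, was at 10.67, 10.85 and 10.86 on the wild-type arrays and at 10.48, 10.33 and 10.69 on the transgenic ones (-0.29 ± 0.14, adjusted p = 0.464).

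The junction gene Cdh5 encodes VE-cadherin, which holds the cells together. It was at 9.24, 9.06 and 9.32 on wild-type sham, TAC 1 and TAC 2 and at 8.64, 8.65 and 9.65 on the same transgenic arrays. Its transgenic TAC 2 value was the highest of the 6 and its other transgenic values the lowest. Esam, an adhesion molecule of endothelial junctions, had the same order of transgenic arrays, at 11.82, 11.89 and 12.42 against 12.21 to 12.37 in the wild type. Cldn5, the main tight junction claudin of endothelium, was at 9.95 on wild-type sham and 9.07 on transgenic sham, and between 9.36 and 9.89 on the TAC arrays. Emcn, a sialomucin of capillaries and veins, was at 11.24 on wild-type sham and 11.78 on transgenic sham, the lowest wild-type and the highest of all values.

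Among the receptor genes and their partners, 8 of 10 were tested, of which 7 were higher after TAC (median 0.17) and 6 lower in transgenic arrays (median -0.20), with none past the test. Flt1, a receptor that binds VEGF tightly with weak signalling, was at 11.73, 12.07 and 11.78 on wild-type sham, TAC 1 and TAC 2 and at 11.54, 11.37 and 11.93 on transgenic ones. Its second probe was at 6.87, 7.37 and 7.11 in the wild type and at 6.58, 7.06 and 6.49 in transgenic arrays. By that probe transgenic TAC 2 was the lowest array, so the probes disagree on its place. Eng, a co-receptor for TGF-beta and BMP ligands, was at 10.24, 10.49 and 10.56 in the wild type and at 9.89, 9.70 and 10.83 in transgenic arrays. Its transgenic TAC arrays held the lowest and the highest value of all 6. The genotype difference of Eng was -0.29 ± 0.25 (limma adjusted p = 0.719), -0.62 without transgenic TAC 2 and 0.02 without transgenic TAC 1.

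Tie1, an orphan receptor that modulates Tek, was at 8.92, 9.02 and 8.93 in the wild type and at 8.37, 8.40 and 9.18 in transgenic arrays (-0.31 ± 0.21, adjusted p = 0.639). Robo4, which stabilises vessels, followed the same order, at 11.33, 11.50 and 11.32 and then 10.89, 10.93 and 11.53. For both genes transgenic sham and TAC 1 were below, and transgenic TAC 2 above, the 3 wild-type arrays. Tek, the angiopoietin receptor, lay between 9.89 on transgenic TAC 1 and 10.52 on transgenic TAC 2, and Ptprb, the phosphatase that dampens Tek, between 9.45 and 10.02 on the same arrays. Ramp2, the partner that turns Calcrl into an adrenomedullin receptor, ran from 11.07 on transgenic TAC 1 to 11.72 on wild-type TAC 1. Flt4, a receptor for VEGF-C found also on lymphatic vessels, was close to the filter, at 5.80, 6.07 and 5.85 in the wild type and at 6.01, 6.23 and 6.08 in transgenic arrays (0.20 ± 0.10, adjusted p = 0.472). The median over its 3 probes gave -0.18 in place of 0.20.

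Among the transcription factor genes, 6 of 7 were tested; 5 were higher after TAC (median 0.14) and all 6 lower in transgenic arrays (median -0.28), with none past the test. Sox18, a SOX factor of growing vessels and lymphatics, was at 10.25, 10.46 and 10.26 on wild-type sham, TAC 1 and TAC 2, at 9.45 on transgenic sham, and at 9.03 and 10.42 on transgenic TAC 1 and 2. The genotype difference was -0.69 ± 0.29 (limma adjusted p = 0.414), the largest negative difference of the 30 genes. Sox7, a relative of Sox18, was at 10.26, 10.05 and 9.97 in the wild type and at 9.62, 8.94 and 10.34 in transgenic arrays (-0.46 ± 0.30, adjusted p = 0.626). A second probe of Sox7 had the same order of transgenic arrays, at 8.16, 7.61 and 9.05. Sox17, the other SOX factor of this subfamily, spanned 7.76 on transgenic TAC 1 to 8.46 on wild-type TAC 1 (-0.30 ± 0.17, adjusted p = 0.576). For all 3 SOX genes transgenic TAC 1 was the lowest array.

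Ets1, an ETS factor of vessel growth found also in lymphocytes, had the largest difference with TAC. It was at 11.10 on wild-type sham, 11.53 and 11.44 on wild-type TAC 1 and 2, 10.68 on transgenic sham, and 11.07 and 11.75 on transgenic TAC 1 and 2. All 4 TAC arrays exceeded the sham array of their own genotype, although transgenic TAC 1 did not exceed wild-type sham. The difference was 0.56 ± 0.19 on the log2 scale, 1.47-fold (limma adjusted p = 0.420). Its 3 other probes lay between 5.86 and 6.09, near the filter. Fli1, an ETS factor of endothelial and blood cells, was at 7.57, 7.62 and 7.90 on the transgenic arrays against 7.83 to 7.96 in the wild type. Tal1, a factor of blood and endothelial lineages, was at 6.66, 6.66 and 6.99 on the transgenic arrays against 6.95 to 7.11.

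All 7 vessel function genes were tested; 5 were higher after TAC (median 0.14) and 6 lower in transgenic arrays (median -0.15), with none past the test. Gpihbp1, which carries lipoprotein lipase to the capillary lumen, was at 11.47, 10.94 and 11.32 on wild-type sham, TAC 1 and TAC 2 and at 10.77, 11.02 and 10.69 on the transgenic arrays. It had the smallest adjusted p of the 30 genes between genotypes (-0.42 ± 0.16, limma adjusted p = 0.354). Transgenic TAC 1 was above wild-type TAC 1, so the groups overlapped, and transgenic TAC 2 was the lowest array. The second Gpihbp1 probe was at 11.21, 10.47 and 10.81 in the wild type and at 10.33, 10.49 and 10.75 in transgenic arrays, so there transgenic TAC 2 was the highest transgenic array and the probes disagree on its place. Nos3, the endothelial nitric oxide synthase, was at 9.43, 9.83 and 9.46 in the wild type and at 9.04, 9.11 and 9.80 in transgenic arrays. Of its other probes the next brightest had the same order of transgenic arrays, at 8.62, 8.85 and 9.53.

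Egfl7, a secreted matrix factor, was at 12.81, 13.05 and 13.10 in the wild type and at 12.64, 12.60 and 13.00 in transgenic arrays (-0.24 ± 0.12 with the transgene, adjusted p = 0.496). Plvap, a component of fenestrae and caveolae that marks leaky capillaries, was at 8.15, 8.78 and 8.35 in the wild type and at 8.44, 8.52 and 8.95 in transgenic arrays, higher on each TAC array than on its own sham array (0.36 ± 0.19, adjusted p = 0.615). Vwf, the platelet-binding clotting factor, was lowest on transgenic TAC 1 at 10.02 and highest on wild-type TAC 1 at 10.84. Cav1, the coat protein of caveolae, was lowest on transgenic TAC 1 at 11.27 and highest on transgenic TAC 2 at 12.19. Rasip1, needed for vessels to form a lumen, was at 8.36 and 8.93 on the same arrays.

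Of the ligands, Vegfa, the growth factor for Flt1 and Kdr, lay within 11.06 to 11.53 by its brightest probe. Its second probe was at 8.78 and 8.63 on wild-type and transgenic sham, 9.45 and 9.07 on wild-type TAC, and 9.04 and 9.34 on transgenic TAC, so by that probe all 4 TAC arrays lay above both sham arrays. Angpt1, the ligand that activates Tek, was at 6.18, 6.20 and 6.26 in the wild type, at 6.93 on transgenic sham, and at 7.32 and 6.12 on transgenic TAC 1 and 2. It ran opposite to Sox18 across the transgenic arrays, high where that gene was low. The genotype difference was 0.58 ± 0.25 (limma adjusted p = 0.429). It rests on 1 probe, since its other 2 lay between 5.27 and 5.53, below the filter, and the median over the 3 probes gave -0.01.

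**Figure D3:**
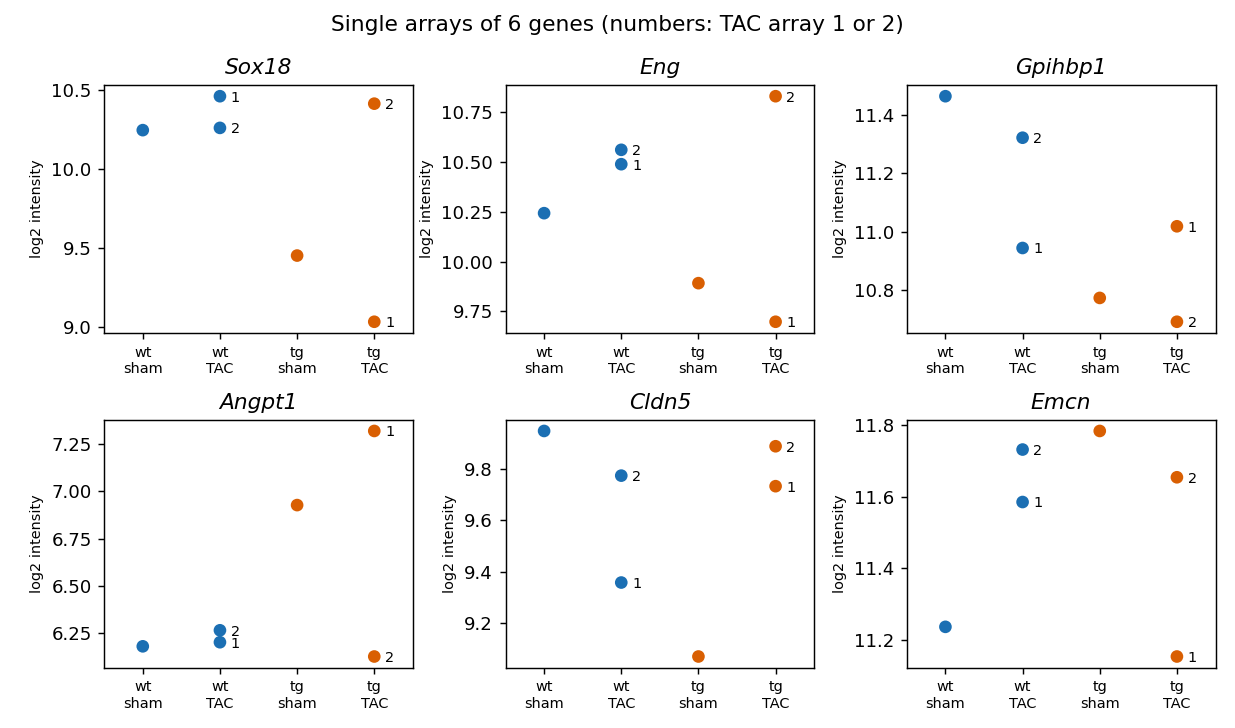
Log2 intensity (y axis) of 6 endothelial genes on each array by group (x axis; wt is wild type and tg transgenic, numbers mark TAC array 1 or 2). Sox18 and Eng are high on transgenic TAC 2 and low on the other 2 transgenic arrays, Angpt1 runs the other way, and Cldn5 and Emcn lie at opposite sides of wild-type sham on transgenic sham (-0.88 and 0.55).

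After TAC alone, 26 of the 30 genes were lower and 4 higher in transgenic than in wild-type arrays (2 against 2 arrays, median -0.21, all genes 0.00). By limma 0 passed (0.206% of all genes did), 0 had an unadjusted p under 0.05, and the smallest adjusted p was 0.965. The arrays did not overlap for 4 lower genes, Pecam1 (-0.37 ± 0.19), Mmrn2 (-0.34 ± 0.19), Egfl7 (-0.28 ± 0.16) and Tal1 (-0.24 ± 0.19), and for 1 higher gene, Flt4 (0.20 ± 0.12), which turned to -0.26 with the median over its 3 probes. Of all genes, 16.8% were apart downward and 15.5% upward. Pecam1 and Egfl7 were apart by their brightest probe only. By the second probe transgenic TAC 2 was above wild-type TAC 1 for Pecam1 (8.95 against 8.61) and for Egfl7 (10.84 against 10.83). Without transgenic TAC 2 the transgenic arm is 1 array, assumed to vary like the wild-type TAC pair that gives the only spread, and 4 genes passed (1.69% of all genes did): Angpt1 (1.09, adjusted p = 0.0172), Sox18 (-1.33, 0.0112), Sox7 (-1.07, 0.0245) and Eng (-0.83, 0.0468). Without transgenic TAC 1, 0 passed, and these 4 had the opposite sign, at -0.11, 0.05, 0.33 and 0.31.

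Between the sham arrays, which have no replicate and no test, 23 of 30 genes were lower and 7 higher in the transgenic array, with a median of -0.23 (all genes -0.02, 52.8% lower). A log2 difference of at least 0.5 was reached downward by 7 genes (5.04% of all genes) and upward by 2 (5.36%). The largest differences downward were those of Cldn5 (-0.88), Sox18 (-0.80) and Icam2 (-0.76), and upward those of Angpt1 (0.75), Emcn (0.55) and Plvap (0.30). Xist was also low on the transgenic and high on the wild-type sham array, so genotype and what Xist marks cannot be told apart in this pair.

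Within wild type, 24 genes were higher and 6 lower after TAC (median 0.14, all genes -0.01), and 0 passed by limma at 0.05, as for all genes (0%); 0 had an unadjusted p under 0.05. Both TAC arrays exceeded the sham array for 22 genes (34.4% of all genes) and lay below it for 4 (38.7%). All 8 receptor genes had a positive difference, from 0.05 for Ptprb to 0.31 for Ramp2. The smallest p-values were those of Pecam1 (0.43 ± 0.23), Emcn (0.42 ± 0.24) and Plvap (0.42 ± 0.30) upward and Cldn5 (-0.38 ± 0.26), Gpihbp1 (-0.33 ± 0.24) and Sox7 (-0.25 ± 0.48) downward. With the median over its 3 probes Pecam1 turned to -0.066. Leaving out wild-type TAC 1 gave a median of 0.08, and leaving out wild-type TAC 2, which has low Xist, gave 0.18.

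Within transgenic arrays, 24 genes were also higher and 6 lower (median 0.15, all genes 0.01), with 0 past the test (0% of all genes), 2 at an unadjusted p under 0.05 and a smallest adjusted p of 0.991. Both TAC arrays exceeded the sham array for 13 genes (31.1% of all genes) and lay below it for 1 (30%), Emcn (-0.38 ± 0.24). The genes with the smallest p upward were Cldn5 (0.74 ± 0.26), Ets1 (0.73 ± 0.28) and Icam2 (0.52 ± 0.24). Transgenic sham had low Xist and both transgenic TAC arrays high Xist, so TAC and what Xist marks cannot be told apart here. With Xist as a covariate the median was 0.04. The Xist term of that fit was set only by differences within the TAC pairs, mainly wild-type TAC 1 and 2 (Xist 10.50 and 5.38). It therefore does not separate Xist from TAC within transgenic arrays. Leaving out transgenic TAC 1 gave a median of 0.39, and leaving out transgenic TAC 2 gave -0.02. In the first case 1 array stands against 1, with the spread taken from the wild-type TAC pair, and Ets1 (1.06, adjusted p = 0.0237), Eng (0.94, 0.0411) and Sox18 (0.96, 0.0473) passed (2.14% of all genes did). In the second case these were at 0.39, -0.19 and -0.42 with none past the test, and with Xist as a covariate Sox18 was at -0.12.

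The difference of the TAC responses, transgenic minus wild type, was positive for 14 genes and negative for 16 (median -0.02, all genes 0.01). By limma 0 passed (0% of all genes), and 2 had an unadjusted p under 0.05. These were Cldn5 (1.12 ± 0.37, adjusted p = 1.00) and Emcn (-0.80 ± 0.34, adjusted p = 1.00). Cldn5 was lower on both wild-type TAC arrays and higher on both transgenic TAC arrays than on the sham array of the same genotype, and Emcn the reverse. The sham values of Cldn5 and Emcn differed more between genotypes than the means of their TAC arrays did, and each rests on 1 sham array a genotype. Single TAC arrays of Emcn ran from 11.15 on transgenic TAC 1 to 11.73 on wild-type TAC 2. The limit set by Xist on the TAC differences within transgenic arrays holds here too.

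**Figure D4:**
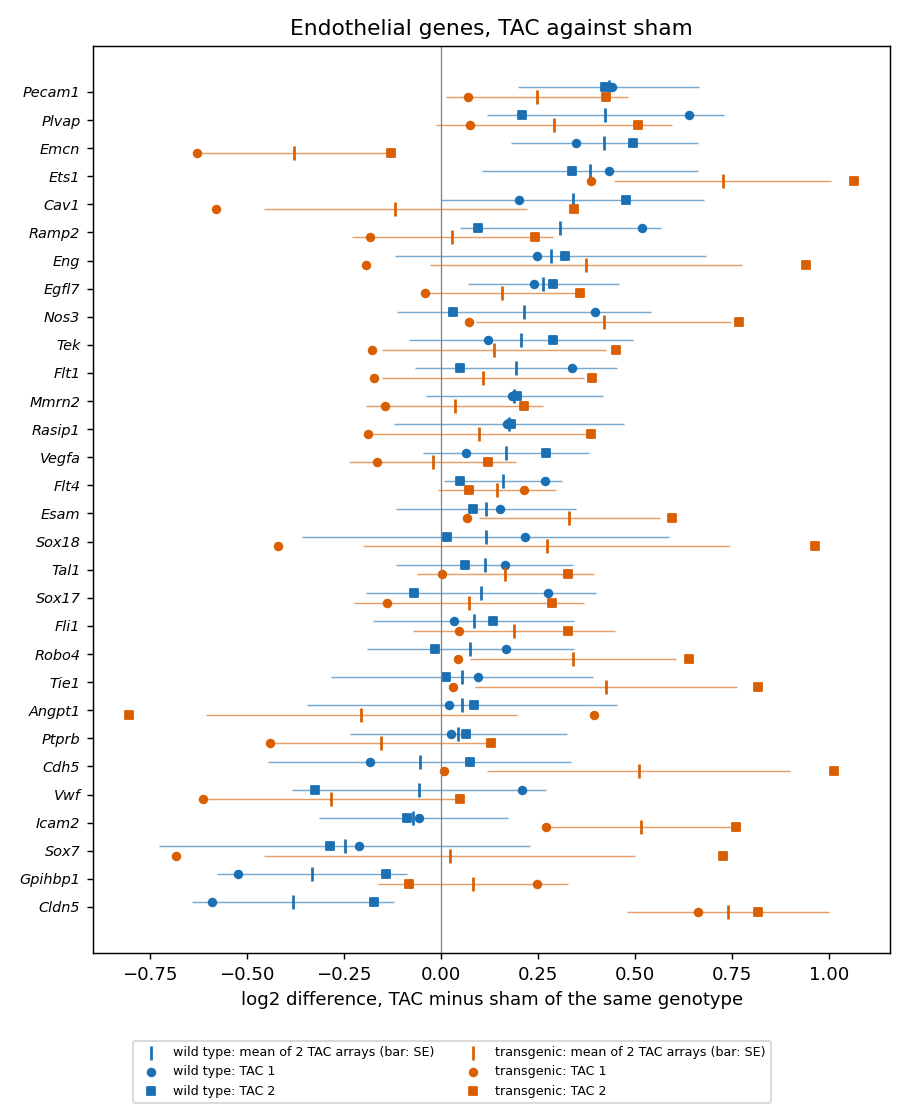
Log2 difference of each TAC array from the sham array of its genotype (x axis; circles TAC 1, squares TAC 2, ticks the mean of both, bars the SE) for 30 endothelial genes (y axis) in wild type (blue) and transgenic (orange). Transgenic TAC 2 lies right of transgenic TAC 1 for 27 of 30 genes, and wild-type TAC 2 right of wild-type TAC 1 for 14 of 30.

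Of 10 vascular lists outside the 34 genes, 6 had a negative and 4 a positive median between genotypes. Of 16 other endothelial genes tested, 11 were lower and 5 higher in transgenic arrays (median -0.09) and 9 were higher after TAC (median 0.11). Of 11 Notch and tip cell genes, which guide sprouting, 8 were lower in transgenic arrays (median -0.19) and 7 higher after TAC (median 0.17). Of 10 capillary and lipid transfer genes 7 were lower (median -0.07), of 7 arterial and venous genes 4 (median -0.12), and of 10 flow, tone and coagulation genes 6 (median -0.03). Of 13 ligands and partner receptors of the 34 genes, 7 were lower and 6 higher (median -0.06). Medians were positive for 3 endothelial activation genes (0.13), 6 lymphatic markers (0.01), 3 endocardial markers (0.17) and 10 hypoxia-responsive genes (0.07). Single genes departed from these medians. The activation gene Cxcl12 was lower (-0.52 ± 0.13, limma adjusted p = 0.141) and the lymphatic marker Prox1 higher (0.75 ± 0.16, adjusted p = 0.0767). The genotypes did not overlap for either, as for 16.1% of all genes. None of the genes of these lists passed between genotypes or with TAC. Ace, which makes angiotensin II on endothelial surfaces, had the largest TAC difference of the tone genes (0.87 ± 0.17, limma adjusted p = 0.226). Median deviations on transgenic TAC 1 and 2 were -0.18 and 0.20 for the other endothelial genes and -0.18 and 0.32 for the Notch and tip cell genes. Of these lists only the hypoxia-responsive genes were lower on transgenic TAC 2 than on TAC 1.

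Markers of other cell types also differed between the arrays, and their part in the endothelial differences was not tested. Smooth muscle and pericyte markers, the cells that wrap vessels, were lower in transgenic arrays for 9 of 9 tested (median -0.43). Their median deviation was -0.19 on transgenic sham, -0.49 on transgenic TAC 1 and 0.04 on transgenic TAC 2, against 0.09 to 0.27 on wild-type arrays. Only Acta2, smooth muscle actin, passed among them (-1.67 ± 0.23, adjusted p = 0.0118). It was at 13.01, 13.91 and 13.13 in the wild type and at 11.87, 11.40 and 11.77 in transgenic arrays, so its groups did not overlap and transgenic TAC 2 was not apart. Macrophage markers were higher in transgenic arrays for 9 of 9 (median 0.25) and fibroblast markers for 8 of 8 (median 0.13), with none past the test. By median deviation fibroblast markers (0.34), like the endothelial genes, were highest on transgenic TAC 2. So were macrophage (0.19), lymphocyte (0.13) and cardiomyocyte (0.07) markers. Smooth muscle and pericyte, platelet, neutrophil, adipocyte and mesothelial markers were not. Cardiomyocyte markers had a median of 0.01 between genotypes, 6 of 12 higher, and deviated by -0.07 to 0.07. Most of them lay close to the highest log2 intensity on the arrays (14.66), where a change may not show. The dimmer ones were at 0.37 (Pln), -0.28 (Ryr2), -0.33 (Ckm) and -0.17 (Tnni3) between genotypes, with none past the test. Blood cell markers differed between the same arrays too. All 4 platelet markers tested were lowest on transgenic TAC 1 (median deviation -0.44) and highest on wild-type TAC 2 (0.58), and 3 of 4 were lower in transgenic arrays (median -0.49), among them Gp9 (-0.76 ± 0.15, adjusted p = 0.0624). Both neutrophil markers tested were lower (median -0.70), led by S100a8 (-0.92 ± 0.22, adjusted p = 0.119). Both red cell markers were lowest on transgenic TAC 1 (-0.26) and highest on transgenic TAC 2 (0.25), with a median of -0.03 between genotypes. Between genotypes the median was 0.02 for 4 lymphocyte markers and -0.19 for 2 adipocyte markers, and the 1 mesothelial marker tested was at -0.31.

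**Figure D5:**
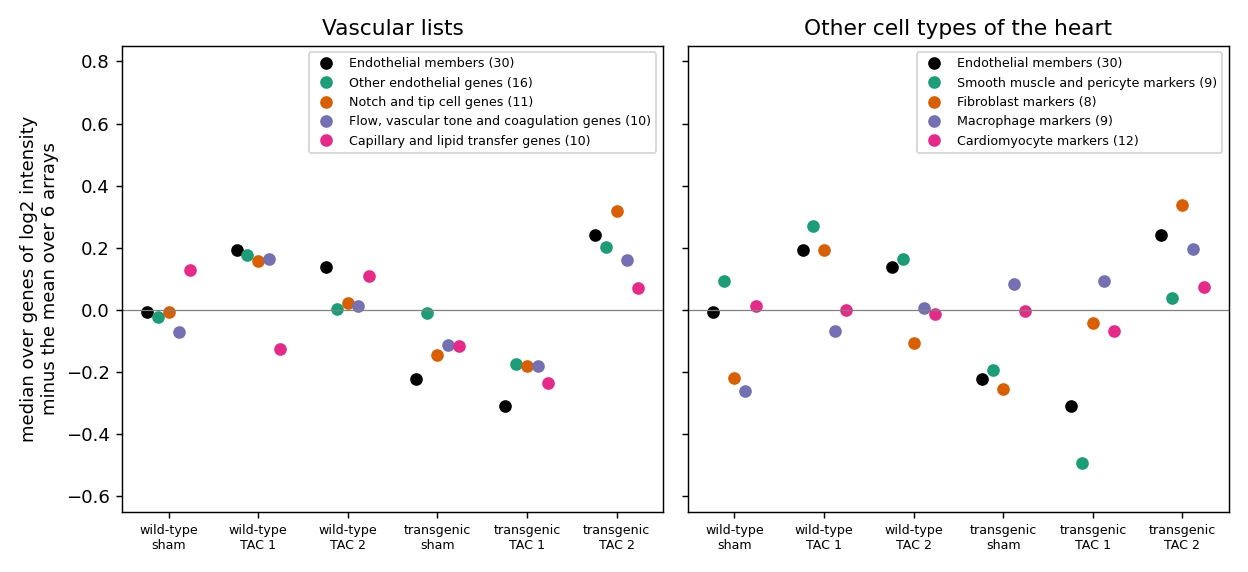
Median over the genes of a list (number tested in the key) of log2 intensity minus each gene's mean over the 6 arrays (y axis), by array (x axis), for vascular lists (left) and other heart cell types (right). The smooth muscle and pericyte list is at -0.49 on transgenic TAC 1, and the cardiomyocyte list stays between -0.07 and 0.07. Most cardiomyocyte markers lie close to the highest intensity on the arrays, where a change may not show.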

How the data were processed

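The measurements were made on 6 Illumina arrays. The deposited table holds 1 linear intensity per probe and array, between 30.8 and 25873, with array medians of 56.3 to 56.4. The sorted columns of the deposited intensities differed from their mean by at most 0.0064 (log2), so the arrays were already on one distribution. How the authors corrected background and normalized is not stated in the labels or headers. Per the labels' protocols, Trizol RNA was cleaned with DNase I and copied into biotinylated cRNA.

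In the re-analysis a floor of 32 was set (12 values) before taking log2, without background subtraction, so folds of dim probes are understated. Of 45281 probes, 34885 had 1 symbol in the platform annotation, 18 several and 10378 none. Genes whose brightest probe lay above the 50th percentile (intensity 58.7) were tested in limma 3.58.1 under R 4.3.3 (lmFit, then eBayes with a trend on intensity). Benjamini-Hochberg adjustment covered 11167 genes, the threshold was 0.05, and errors are SE. A surgery plus genotype model (3 residual and 6.14 prior degrees of freedom) gave the comparisons over all arrays. A 4-group model (2 and 6.25) gave the others, with each lone sham array assumed to vary like the TAC arrays. Steps were tested on simulated data.

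The 34 genes and the marker lists were chosen with earlier results of these data known, and the lists hold none of the 34. Described in full were genes past a test or, failing that, up to 3 each way with the smallest p whose arrays do not overlap, and in the sham pair the 3 largest differences each way; the values of the other genes were chosen for description after they were seen, to account for all members. Alternatives were the filter, the variance trend, the probe rule, cyclic loess, background subtraction, Xist, a replicate block and leaving out each array.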

Additional observations from a re-analysis of the deposited data

Results flagged for a closer look

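Cldn5, Icam2 and Emcn had TAC differences of opposite direction in the 2 genotypes on every TAC array, each read against 1 sham array. For Icam2 the wild-type difference was small (-0.07 ± 0.24). Xist was low on transgenic sham and high on both transgenic TAC arrays, so TAC and what Xist marks cannot be told apart in the transgenic differences. The difference of the responses, transgenic minus wild type, was 1.12 ± 0.37 for Cldn5, 0.59 ± 0.34 for Icam2 and -0.80 ± 0.34 for Emcn, and none passed limma's test of that difference (adjusted p = 1.00 for each).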

How the results depend on the processing

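In the settings that kept all arrays and could be fitted, 0 endothelial genes passed limma at 0.05 in any of the 6 comparisons. With each array left out in turn the number ranged from 0 to 7 between genotypes over both surgeries, 0 to 4 after TAC and 0 to 3 for TAC within transgenic arrays, and was 0 in the other 3. The median over the genes ranged from -0.46 to 0.10 after TAC between genotypes and from -0.32 to 0.21 for the difference of the TAC responses; the cause was not tested. Of 522 alternatives of 38 named values, 496 kept their sign and side of the threshold, 14 passed only there (11 without transgenic TAC 2, 3 without transgenic TAC 1) and 12 reversed.

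With the median over a gene's probes, Angpt1 (-0.0066) and Flt4 (-0.18) reversed between genotypes, Flt4 (-0.26) after TAC and Pecam1 (-0.066) for TAC in wild type, where dimmer probes enter the value. With Xist as a covariate Sox18 for TAC within transgenic arrays was -0.12. Leaving out 1 array gave Eng -0.62 to 0.024 between genotypes; after TAC it gave Sox18 -1.33 to 0.053, Angpt1 -0.11 to 1.09, Sox7 -1.07 to 0.33 and Eng -0.83 to 0.31; for TAC within transgenic arrays it gave Eng -0.19 to 0.94 and Sox18 -0.42 to 0.96.

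Over all genes, the number past the test between genotypes was 106, 0 to 125 with other settings and 24 to 473 without 1 array; after TAC it was 23, 0 to 51 and 0 to 189. For TAC over both genotypes it was 1, 0 to 2 and 0 to 37, within wild type 0, 0 to 10 and 0 to 11, within transgenic arrays 0, 0 to 1 and 0 to 239, and for the difference of the responses 0, 0 to 5 and 0 to 1. The arrays share only a replicate number: TAC 1 minus TAC 2 correlated at r = -0.03 between genotypes over 11167 genes. With the replicate block 111 of all genes passed between genotypes and 51 after TAC, 0 of them endothelial genes listed here. The number of arrays limits the precision, and probes near the array median carry little signal over background.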
